A study of Caenorhabditis elegans with 2 samples.

Results

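The autosomal promoter peaks of protein-coding genes were the 1868 peaks, of 7443 in the authors' pooled list, whose summit lay on 1 of the 5 autosomes and between 1000 bp upstream and 500 bp downstream of an annotated protein-coding 5′ end. Summits within 100 bp of a tRNA, snoRNA or snRNA gene were left out. The members made up 31.3% of the 5973 autosomal peaks of that list. The data are ChIP-seq, the sequencing of DNA that is immunoprecipitated together with a chosen protein, from whole late embryos of the nematode Caenorhabditis elegans. The series held 1 group of 2 biological replicates, and no second condition or untagged strain was analysed here. Both libraries came from a strain of mixed sex whose label gives the allele unc119(ed3) and the transgene wgIs377, a construct of fkh-10 with TY1, EGFP and FLAG tags and an unc119 rescue gene. The label's strain number, OP337, and its insertion number differ, and both libraries are given here as labelled eGFP-FKH-10. The signal of a peak is its height as the authors' caller gave it, on a scale not given in the sources used here. The files used here give no read counts, so depth is unknown, and intervals and p-values below rest on peaks, which can neighbour each other, and not on replicates. A stretch of 36.9 kb on chromosome I, around the K05C4 genes, and a stretch of 34.2 kb on chromosome IV, around the C06G3 genes, held dense groups of peaks, and 49 members lay in them. Leaving out both left 1819 members.

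Forkhead proteins are transcription factors with a winged-helix DNA-binding domain, and most of those studied recognise variants of a short A- and T-rich core. In C. elegans many genes are trans-spliced, so that the leader of the mRNA is replaced and the annotated 5′ end can lie downstream of the place where transcription starts. Promoters of widely expressed worm genes are often shared by a pair of genes that run in opposite directions, and short, highly occupied regions are a known feature of ChIP-seq on tagged worm factors.

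The sequences at the 8 highest members on chromosomes II to V outside the stretches are shown because dinucleotides of C followed by G (CpG) at the summit set the strongest members apart from their own flanks in the base counts given further on. Each line holds 151 bases of ce11, from RefSeq's copy of the assembly, centred on the summit and read in the direction of the nearest gene, with every CpG in capitals.
rpl-3: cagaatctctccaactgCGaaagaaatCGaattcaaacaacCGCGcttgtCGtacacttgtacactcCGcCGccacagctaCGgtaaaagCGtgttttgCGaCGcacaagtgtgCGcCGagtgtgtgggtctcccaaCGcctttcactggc
tasp-1: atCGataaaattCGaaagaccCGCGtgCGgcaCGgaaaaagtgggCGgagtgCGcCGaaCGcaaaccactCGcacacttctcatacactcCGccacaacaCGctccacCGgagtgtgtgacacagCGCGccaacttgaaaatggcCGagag
atx-2: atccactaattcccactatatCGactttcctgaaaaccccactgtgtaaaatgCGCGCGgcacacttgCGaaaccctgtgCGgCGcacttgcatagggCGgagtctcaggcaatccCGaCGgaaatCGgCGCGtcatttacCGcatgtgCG
Y17G9B.5: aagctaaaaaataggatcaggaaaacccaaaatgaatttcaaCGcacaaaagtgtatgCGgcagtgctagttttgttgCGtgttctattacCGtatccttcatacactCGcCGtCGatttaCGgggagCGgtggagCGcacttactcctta
cdc-48.1: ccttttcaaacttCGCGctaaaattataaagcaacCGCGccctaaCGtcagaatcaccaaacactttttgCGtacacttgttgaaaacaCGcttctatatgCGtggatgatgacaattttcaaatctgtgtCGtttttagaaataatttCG
idhg-1: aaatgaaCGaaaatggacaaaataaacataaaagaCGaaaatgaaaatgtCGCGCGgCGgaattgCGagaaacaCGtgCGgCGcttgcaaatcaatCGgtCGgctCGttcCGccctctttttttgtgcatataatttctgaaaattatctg
ears-2: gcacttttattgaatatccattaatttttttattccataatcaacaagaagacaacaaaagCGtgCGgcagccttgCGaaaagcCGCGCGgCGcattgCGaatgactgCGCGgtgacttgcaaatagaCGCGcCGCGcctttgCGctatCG
rpl-15: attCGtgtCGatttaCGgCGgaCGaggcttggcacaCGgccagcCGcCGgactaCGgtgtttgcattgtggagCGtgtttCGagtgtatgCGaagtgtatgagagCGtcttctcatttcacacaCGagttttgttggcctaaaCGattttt
The window of rpl-3 is chrIII:3867488-3867638 on the plus strand. That of tasp-1 is chrIII:10759150-10759300 and that of atx-2 is chrIII:10461245-10461395, both on the plus strand. That of Y17G9B.5 is chrIV:4749987-4750137 and that of idhg-1 is chrIII:4568673-4568823, both on the plus strand. The windows of cdc-48.1 at chrII:10563487-10563637, ears-2 at chrIV:390439-390589 and rpl-15 at chrIV:654848-654998 are on the minus strand. All 8 summits lay between genes in the annotation. The 8 windows held 10 to 17 CpG, the most at tasp-1, and 37.7% to 57.0% G and C, the least at cdc-48.1. A forkhead core was found in the window of idhg-1 and in none of the other 7.

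The highest member outside the stretches stood 291 bp upstream of rpl-3, which encodes a protein of the large ribosomal subunit, with a signal of 72.0 in the replicate 1 list and 56.5 in the replicate 2 list, and 129 in the pooled list. It was high in both libraries, at rank 14 in replicate 1 and rank 9 in replicate 2, and its 141 bp width differed from the 336 bp of 1836 members. The peak 82 bp upstream of tasp-1, which encodes a homologue of the protease taspase, had 59.7 in replicate 1, 29.6 in replicate 2 and 92.3 in the pooled list. That at atx-2, the ataxin-2 homologue, an RNA-binding protein, had 49.5 in replicate 1, 37.4 in replicate 2 and 85.8 in the pooled list. Both were higher in replicate 1.

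The peak nearest to Y17G9B.5 also lay 284 bp upstream of rpl-20, another gene of the large ribosomal subunit, and had 49.3 in replicate 1, 35.6 in replicate 2 and 83.5 in the pooled list. The peak 155 bp upstream of cdc-48.1, the gene for an AAA ATPase that unfolds ubiquitinated proteins, had 53.2 in replicate 1, 24.9 in replicate 2 and 80.9 in the pooled list. That at idhg-1, which encodes a subunit of the mitochondrial isocitrate dehydrogenase, had 42.5, 35.4 and 78.6 in these 3 lists in the same order. The peak at rank 24 in replicate 1 and rank 175 in replicate 2, at cdc-48.1, shows how far the order of strong members could differ between the libraries.

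A single summit lay 46 bp upstream of both ears-2, named for a mitochondrial glutamyl-tRNA synthetase, and its divergent neighbour uncp-18, with 44.7 in replicate 1, 29.9 in replicate 2 and 76.5 in the pooled list. Both genes start near this summit. The peak at rpl-15 had 47.9 in replicate 1, 26.5 in replicate 2 and 74.99 in the pooled list. The peak at lron-13 had 37.2 in replicate 1, 33.0 in replicate 2 and 68.4 in the pooled list. These 2 peaks lay farther upstream, at 347 and 501 bp. A summit shared by the histone genes his-68 and his-67 and, farther away, by the Argonaute gene alg-5 had 37.5 in replicate 1, 30.8 in replicate 2 and 68.0 in the pooled list. The alpha-tubulin gene tba-7 had its peak in an intron, 327 bp downstream of the 5′ end, with 33.6 in replicate 1, 30.1 in replicate 2 and 64.8 in the pooled list.

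The other 9 of the 20 highest members outside the stretches had pooled signals of 53.1 to 63.6. In that order their nearest 5′ ends were those of F48C1.3, cox-5B (a subunit of cytochrome c oxidase), mrck-1 (a protein kinase), scpl-3, Y71H2AM.20, spe-48, tag-340, klp-20 (a subunit of kinesin II) and Y39A1A.22. Across the 20, signals ran from 23.7 to 72.0 in replicate 1 and from 19.6 to 56.5 in replicate 2. Replicate 1 was the higher at 16 of the 20. Among the 1219 members with a peak in both lists it also had the higher median, 12.6 against 9.48, and the scales of the lists may differ. The 20 were unevenly spread: 10 lay on chromosome III, 5 on I, 3 on IV, 1 on II and 1 on V. Of the 20, 18 lay upstream of their nearest 5′ end and 12 within 300 bp upstream of it.

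**Figure D1:**
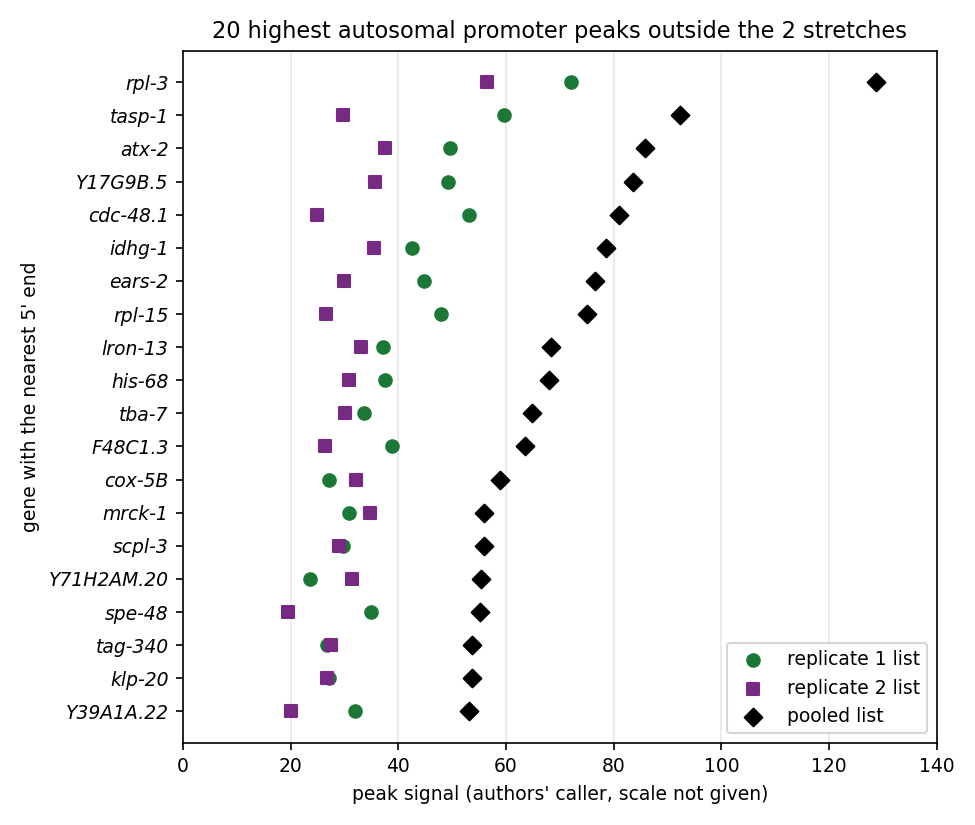
Signal (x axis, the authors' caller's units, scale not given) of the 20 highest autosomal promoter peaks outside the 2 stretches, by the gene with the nearest 5′ end (y axis), in the replicate 1, replicate 2 and pooled lists. Of these peaks that at rpl-3 stands highest in each list, and 16 of the 20 have a higher signal in replicate 1 than in replicate 2. The median over members in both replicate lists is also higher in replicate 1 (12.6 against 9.48).

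In the stretch on chromosome I, the highest member was the highest of all, with 134 in the pooled list. It lay in a coding exon, 841 bp upstream of pbs-5, a gene for a beta subunit of the proteasome, with 50.6 in replicate 1 and 88.3 in replicate 2, where it was at rank 1. The stretch held 33 members over the windows of 13 genes, with a median pooled signal of 46.3, and 31 of the 33 had a width other than 336 bp. The stretch on chromosome IV held 16 members over the windows of 7 genes with a median of 21.1. Its highest, between cogc-2, which encodes a subunit of a Golgi tethering complex, and the kinesin gene klp-18, had 22.1 in replicate 1, 15.6 in replicate 2 and 36.8 in the pooled list. The 3 genes with the most member summits, 4 each, were K05C4.2, K05C4.5 and C06G3.8, all in these stretches. Outside them no gene window held more than 2 of the summits. Whether the dense peaks in these stretches reflect the tagged protein was not tested.

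Over all 1868 members the pooled signal ran from 16.2 to 134, with quartiles of 17.6, 19.7 and 23.8, so that most members stood close to the lowest value. The thresholded list, which the authors derived with the irreproducible discovery rate (IDR), a measure of how well peak ranks agree between replicates, held 378 peaks, and these were the peaks of the pooled list from a signal of 36.6 upward. Of the pooled list, 5.08% were in it. Of the members, 117 were in it (6.26%, 95% Wilson interval 5.25% to 7.45%). The lowest of these, at mtss-1, had a pooled signal of 36.7, and the highest member outside the list, at Y39G8B.2, had 36.5.

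The share of members in the thresholded list was higher than that of exonic, intronic and distal intergenic autosomal peaks. It was below that of the 159 autosomal peaks near tRNA, snoRNA or snRNA genes, of which 42 (26.4%) were in the list; that class was not tested. The share was 6.26% of 1868 members, against 2.19% of 959 exonic peaks outside promoter windows (odds ratio 2.98, two-sided Fisher's exact test, adjusted p = 1.07e-06). Against 2.23% of 1703 intronic peaks the odds ratio was 2.93 (adjusted p = 5.33e-09 in the same exact test), and against 3.27% of 1284 distal intergenic peaks it was 1.98 (adjusted p = 0.00013). The p-values were adjusted by the Benjamini-Hochberg method over these 3 comparisons. Without the stretches the share in the same exact tests was 5.11% of 1819 members, against 0.641% of 936 exonic peaks (odds ratio 8.35, adjusted p = 9.55e-11), 1.84% of 1689 intronic peaks (2.88, adjusted p = 1.68e-07) and 3.30% of 1273 distal intergenic peaks (1.58, adjusted p = 0.0157). The odds ratio against exonic peaks moved most, since 21 exonic peaks were thresholded with the stretches and 6 without them.

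**Figure D2:**
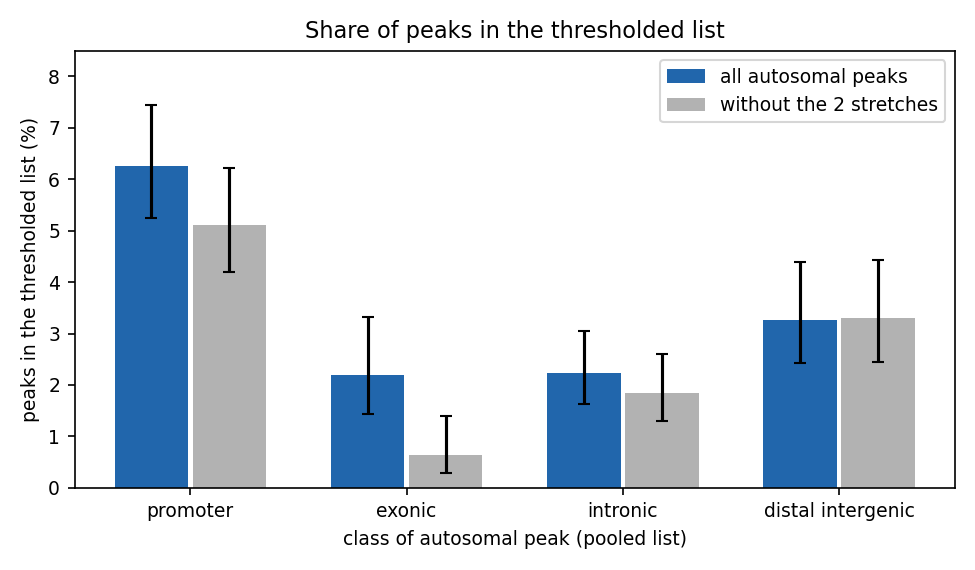
Share of autosomal peaks of the pooled list that were in the thresholded list (y axis, percent) by class of peak (x axis, without the class near tRNA, snoRNA or snRNA genes), for all autosomal peaks (blue) and without the 2 stretches (grey); error bars are 95% Wilson intervals over peaks. Of these 4 classes promoter peaks stand highest at 6.26% and 5.11%, and exonic peaks without the stretches stand lowest at 0.641%.

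The members were also found in both replicate lists slightly more often than exonic, intronic or distal intergenic peaks. The autosomal peaks near tRNA, snoRNA or snRNA genes, which were not tested, were in both in 84.3% of cases. A peak of replicate 1 overlapped 87.2% of the members by at least 1 bp and a peak of replicate 2 overlapped 77.2%, while both did for 1219 members (65.3%, 95% Wilson interval 63.1% to 67.4%). Over all autosomal peaks of the pooled list that share was 62.3%. It was 65.3% of members, against 60.2% of exonic peaks (odds ratio 1.24, two-sided Fisher's exact test, adjusted p = 0.0117), 59.2% of intronic peaks (1.29, adjusted p = 0.000648) and 60.8% of distal intergenic peaks (1.21, adjusted p = 0.0117). With windows reaching 2000 bp upstream, the exact tests against exonic peaks (adjusted p = 0.13) and distal intergenic peaks (adjusted p = 0.109) no longer passed. The replicate lists are long, with 27900 and 30000 peaks, and peaks of replicates 1 and 2 covered 10.1% and 10.5% of the promoter window bases, with 2.17% covered by both. This coverage of bases is not the same measure as the overlap of a whole peak by at least 1 bp.

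Presence in both replicates went with signal. With the members divided by pooled signal into 4 classes of 467, it was 42.2% in the lowest class, 55.0% in the second, 73.9% in the third and 89.9% in the highest, and 115 of the 117 thresholded members had a peak in both replicates. Since the pooled list was made from both libraries, this relation is a description. Among the 1219 members with a peak in both, the Spearman correlation of replicate 1 and replicate 2 signals was 0.20 across peaks, and 0.15 without the stretches. These members had been selected by a signal that both libraries make up, and the effect of that selection on the correlation was not tested.

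Member summits were densest within 300 bp upstream of the 5′ end. The median summit was 174 bp upstream of the nearest 5′ end, close to the 167 bp of the window bases, so the median shows no preference. Of the summits, 72.5% lay upstream, against 62.4% of the window bases, and 36.9% lay within 300 bp upstream, against 21.5% of the bases. Density was highest from 200 to 100 bp upstream, at 161 summits per Mb of window sequence, and lowest from 400 to 500 bp downstream, at 52.0 per Mb. Of the thresholded members, 58.1% lay within 300 bp upstream, or 66.7% without the stretches, and their density was highest in the last 100 bp before the 5′ end, at 15.3 per Mb. Summits within 300 bp upstream made up 49.7% of the highest of the 4 signal classes, against 30.2% of the lowest.

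**Figure D3:**
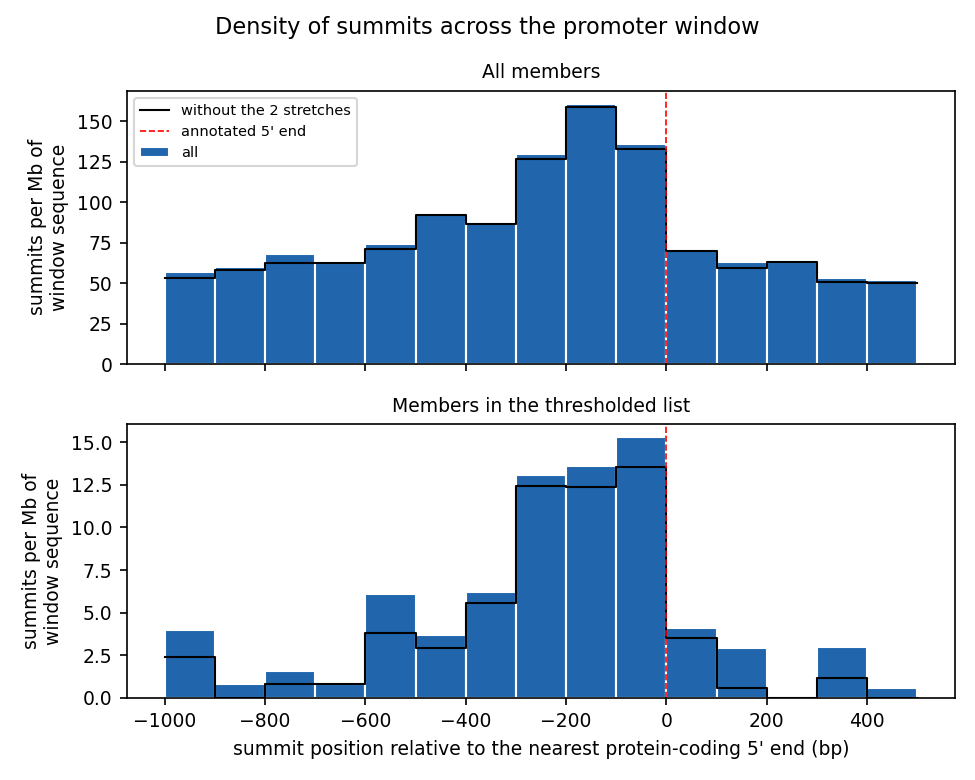
Summits per Mb of promoter window sequence (y axes) by position relative to the nearest protein-coding 5′ end in bins of 100 bp (x axis), for all members (top) and members of the thresholded list (bottom); the black line leaves out the 2 stretches. Density is highest from 300 bp upstream to the 5′ end in both panels, with 161 per Mb at the top of the first and 15.3 per Mb at the top of the second.

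By annotation, 60.3% of members lay between genes, against 45.3% of the window bases, 16.5% lay in introns, against 20.03%, and 15.7% in coding exons, against 26.6%. A further 79 summits (4.23%) lay in 5′ UTRs and 60 (3.21%) in 3′ UTRs. Members between genes were in the thresholded list in 7.46% of cases, and those in coding exons in 3.06%. Among RNA genes, 3 members had their summit in or within 100 bp of a miRNA gene. For piRNA genes 24 did (1.28%, against 1.57% of the window bases), and for genes annotated as ncRNA 111 did (5.94%, against 1.80%). The window bases were counted with the same margin.

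Chromosomes I and III had the most members for their window sequence, with 110 and 106 per Mb, followed by IV with 81.9, II with 77.7 and V with 60.1. Thresholded members numbered 48 of 408 on chromosome I (11.8%), 27 of 361 on III (7.48%), 17 of 351 on IV (4.84%), 17 of 398 on V (4.27%) and 8 of 350 on II (2.29%). Without its stretch, chromosome I had 25 of 375 (6.67%). The 95% Wilson intervals of I without its stretch (4.56% to 9.66%) and III (5.19% to 10.7%) overlapped, and that of II (1.16% to 4.44%) lay below both.

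The windows with a member summit belonged to 2197 of the 17242 autosomal protein-coding genes (12.7%), and those with a thresholded member to 153 (0.887%). Of these genes 2080 had 1 member summit, 106 had 2 and 11 had 3 or more. A peak often served several genes: 431 members (23.1%) lay in the windows of at least 2 genes, against 13.8% of the window bases. Of these 431, 45 (10.4%) were in the thresholded list, against 72 of 1437 (5.01%) of those in 1 window. Genes with a divergent neighbour within 1000 bp had a member in 671 of 3259 cases (20.6%). Genes downstream of a neighbour on the same strand had one in 10.6% of cases at a gap of up to 500 bp and in 10.7% at a larger gap of up to 1000 bp, genes with no such neighbour in 10.9%, and genes overlapped by their neighbour in 12.4%. The 72 thresholded genes of the divergent class were 2.21% of it, against 0.422% of the genes with no close neighbour. Since both genes of a divergent pair count the same peak, these shares describe genes and not independent peaks.

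Ribosomal protein genes held the highest share of the gene lists. Of 79 ribosomal protein genes, 47 (59.5%) had a member in the window, of 32 lists, to be read against 12.7% of all genes. The list was chosen with earlier results of these peaks known. The count was 31 (39.2%) when each peak counted only for its nearest gene, against 10.3% of all genes. From the strongest peaks of replicate 2 alone the count was 36 (45.6%) and from those of replicate 1 alone 35 (44.3%). Their summits lay a median of 281 bp upstream, and 44 of the 47 were upstream. Thresholded members were at 7 of the 79 genes (8.86%, against 0.887% of all genes), with rpl-3, rpl-20 and rpl-15 the highest. The median signal at the 47 genes was 21.8, where that of all members was 19.7, and 36 of the 47 had a peak in both replicates.

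Of 39 translation factor genes, 13 (33.3%) had a member, against 12.7% of all genes. From replicate 1 alone 8 (20.5%) had one, against 12.6% of all genes. The highest was 63 bp upstream of iff-2, which encodes translation factor eIF5A, with 29.9 in replicate 1, 16.7 in replicate 2 and 48.6 in the pooled list. It was followed by eif-3.C (25.3 in replicate 1, 17.9 in replicate 2 and 47.6 pooled) and eif-3.D (14.9, 16.8 and 36.01 in that order), subunits of the initiation factor eIF3. All 3 had a peak in each replicate, and eif-3.D alone of them fell short of the thresholded list. Of 70 mitochondrial ribosomal protein genes, 23 (32.9%) had a member, or 15 (21.4%) by nearest gene only, against 10.3% of all genes. Of the 70, 1 had a thresholded member (1.43%, against 0.887% of all genes), mrpl-12, at 53.1 in the pooled list. The next, mrps-7, had 10.6 in replicate 1, 22.2 in replicate 2 and 33.6 in the pooled list. The aminoacyl-tRNA synthetases, which charge tRNAs, stood at 3 of 32 (9.38%), but at 7 (21.9%) from replicate 2 alone and 6 (18.8%) from replicate 1 alone. All genes stood at 12.7%, 12.03% and 12.6% in the same order, so that the place of this list relative to all genes changed with the peaks used.

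Among genes for RNA production and chromatin, the shares of the first 2 lists were above that of all genes (12.7%) and that of histones was near it. Of 44 splicing and snRNP genes, 15 (34.1%) had a member, the highest being 1 peak shared by rsp-1 and rsp-2, which encode SR splicing proteins, with 18.8 in replicate 1, 16.7 in replicate 2 and 37.9 in the pooled list. Of 54 genes of RNA polymerase, TFIID and Mediator, 17 (31.5%) had one, led by mdt-19, a Mediator subunit gene, at 46.2, and taf-4, a TFIID subunit gene, at 42.6 in the pooled list. From replicate 1 alone 10 of the 54 (18.5%) had one, against 12.6% of all genes. Of 76 histone genes, 12 (15.8%) had one, near the share of all genes, but 4 of them were thresholded (5.26%, against 0.887% of all genes). The 4 rested on 3 peaks, since his-67 and his-68 share theirs, and the others were his-37 at 45.4 and hil-7, a linker histone gene, at 40.3.

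Among genes for protein folding, transport and energy, the shares were 16 of 56 chaperones (28.6%), 7 of 24 ubiquitin conjugation genes (29.2%), 6 of 33 proteasome genes (18.2%), 7 of 17 V-ATPase genes (41.2%), 10 of 36 respiratory chain and ATP synthase genes (27.8%), 6 of 17 Rab GTPases (35.3%), 5 of 26 nuclear pore genes (19.2%) and 6 of 17 cyclins and cyclin-dependent kinases (35.3%). These shares are to be read against 12.7% of all genes. Without the stretches 15 chaperone genes (26.8%) and 5 proteasome genes (15.2%) had a member, against 12.6% of all genes. From replicate 2 alone 3 of the Rab genes (17.6%) had one, against 12.03% of all genes. Lists this short have wide intervals: that of the V-ATPase genes ran from 21.6% to 64.0%. Of the chaperone genes 4 had a thresholded member (7.14%, against 0.887% of all genes), including a member in the stretch on chromosome I. They were led by cct-7, a subunit of the cytosolic chaperonin, with 33.7 in replicate 1, 16.9 in replicate 2 and 49.996 in the pooled list. The dnj-29 peak was higher in replicate 2, with 21.1 in replicate 1, 27.1 in replicate 2 and 48.7 in the pooled list, and hsp-60, the mitochondrial chaperonin gene, had 26.5, 23.0 and 46.9. All 3 were found in both replicates. By nearest gene only, 8 of the 56 chaperone genes had a member (14.3%), against 10.3% of all genes. The highest V-ATPase member was at vha-13, at 38.2 in the pooled list, the highest Rab member at rab-5, a regulator of early endosomes, at 33.7, and the highest cyclin or kinase member at cdk-9, the kinase that releases paused polymerase, at 33.5. Of 10 tubulin genes the 2 with a member, tba-7 and tba-2, were thresholded (20%). Of 11 kinesin genes 3 had a member, and klp-20 and klp-18 were thresholded (18.2%). These 2 shares are to be read against 0.887% of all genes. The klp-18 member lay in the stretch on chromosome IV, and without the stretches 2 kinesin genes had a member.

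Large families whose members mostly serve particular cells or conditions stood below the share of all genes, as counts. Of 1276 chemoreceptor genes, 58 (4.55%) had a member. The highest of these was at sri-5, with 30.1 in replicate 1, 12.4 in replicate 2 and 42.03 in the pooled list, followed by sre-1 at 38.3 in the pooled list, and these 2 were the thresholded ones. Of 106 neuropeptide genes 6 had a member (5.66%), of 65 ligand-gated channel genes 4 (6.15%), of 378 F-box, MATH and BTB genes 25 (6.61%), of 237 C-type lectin genes 17 (7.17%) and of 171 cytochrome P450, UGT and GST genes 8 (4.68%). The counts moved with the library: from replicate 1 alone 89 chemoreceptor genes (6.97%) and 17 of the P450, UGT and GST genes (9.94%) had a member, to be read against 12.6% of all genes, and from replicate 2 alone 10 of the neuropeptide genes (9.43%), to be read against 12.03%. Cuticle collagens stood at 18 of 142 (12.7%), equal to the share of all genes to this precision, and innexins, which form gap junctions, at 2 of 18 (11.1%), or 1 from replicate 1 alone. None of the collagen, neuropeptide, lectin or detoxification genes had a thresholded member, where 0.887% of all genes did.

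Lists of transcription factor genes stood on both sides of the share of all genes. Of 246 nuclear hormone receptor genes, 20 (8.13%) had a member and 0 a thresholded one, the highest being nhr-47 at 34.004. From replicate 1 alone 32 of them (13.01%) had one, against 12.6% of all genes. Of 63 homeobox genes, 9 (14.3%) had one, led by ceh-38 at 36.8, the 1 thresholded, and unc-42, which had 7.27 in replicate 1, 25.9 in replicate 2 and 31.4 in the pooled list. Of 34 ztf and zip genes 6 had one (17.6%), of 19 hlh genes 2 (10.5%), of 7 GATA genes 2 (28.6%) and of 18 T-box genes 0, with an interval up to 17.6%. From replicate 1 alone 1 of the hlh genes had one, and from replicate 2 alone 3 of the hlh genes and 1 of the GATA genes. Of 11 autosomal forkhead genes 2 had one: lin-31, with 9.67 in replicate 1, 10.9 in replicate 2 and 20.9 in the pooled list, and daf-16, the FOXO gene of insulin signalling, with no overlapping peak in replicate 1, 6.51 in replicate 2 and 17.4 in the pooled list. Neither was thresholded, and fkh-10 itself, on the same chromosome as daf-16, had no member. The count of forkhead genes with a member was 1 from replicate 1 alone and 3 from replicate 2 alone.

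**Figure D4:**
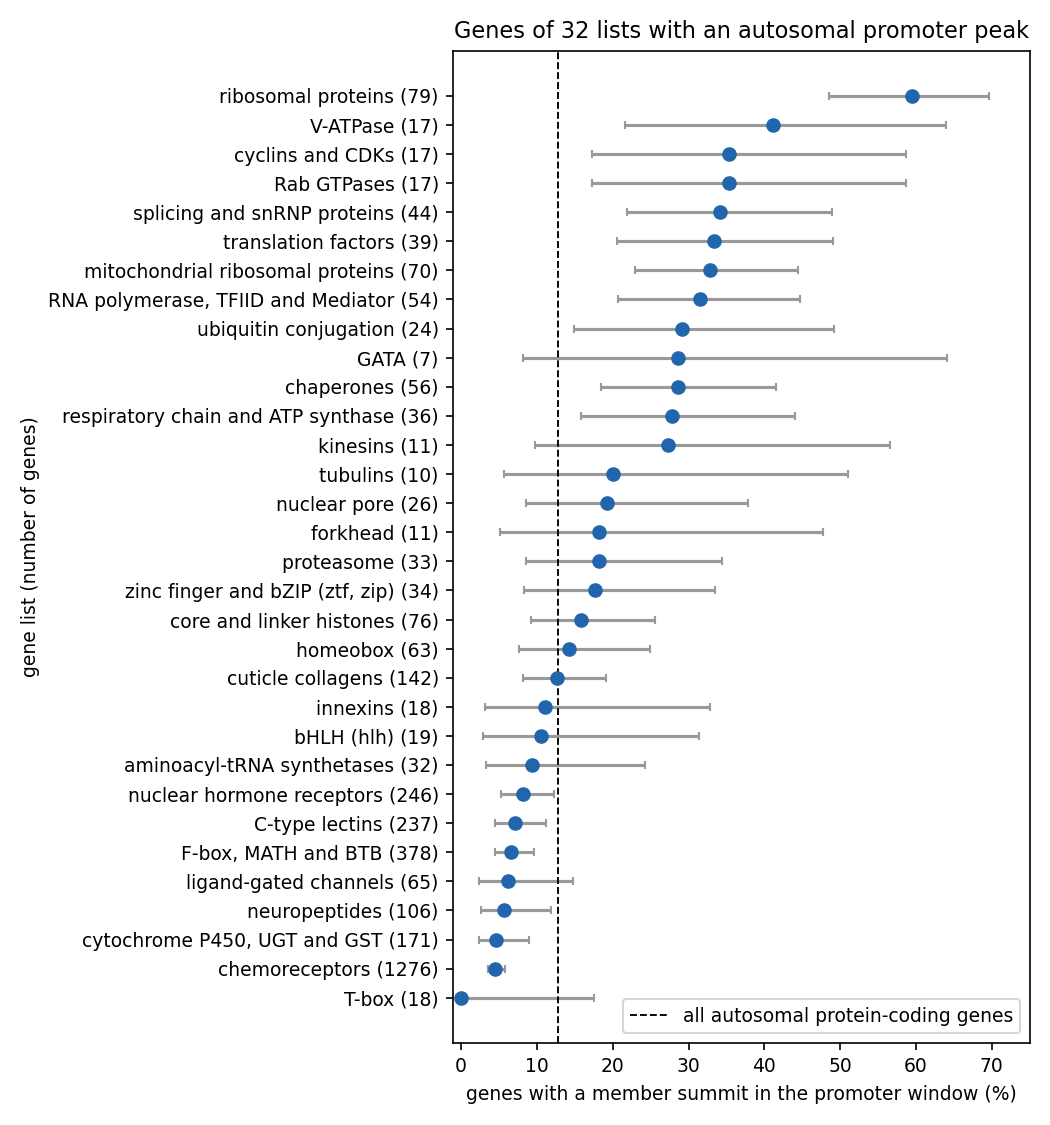
Share of the genes of each of 32 lists with a member summit in the promoter window (x axis, percent, with 95% Wilson intervals over genes), with the number of genes in parentheses; the dashed line is the 12.7% of all autosomal protein-coding genes. Ribosomal protein genes stand at 59.5%, and chemoreceptor genes at 4.55%.

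The share of member summits with a forkhead core was close to that of their flanks. It was searched as NTAAANA, with A or G as the first N and C or T as the second, on both strands within 100 bp of the summit and in flanks centred 500 bp to either side. It was found at 18.6% of summits (95% Wilson interval 16.9% to 20.4%), against 18.8% of flanks. Of all autosomal promoters, in windows of the same length centred 150 bp upstream, 26.0% held it. At the thresholded members it was found at 9 of 117 summits (7.69%), against 17.1% of flanks, and without the stretches at 7.53%, against 17.2%. GTAAACA alone was at 2.19% of summits, against 2.01% of flanks, and at 0 of 117 thresholded summits, with an interval up to 3.18%. From the strongest peaks of replicate 2 alone the share was 15.3% of summits, against 17.996% of flanks. Those of replicate 1 alone gave 20.3%, against 18.8%. With only as many peaks as the thresholded list has, replicate 2 alone gave 8.33%, against 18.1%, and replicate 1 alone 15.3%, against 17.1%. The low share at strong peaks was thus much less marked in replicate 1. A match is a description of the letters and not a site, and no match says nothing about the factor.

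The 3 thresholded members below are shown as exceptions to the low share among thresholded members. They were the strongest on chromosomes II to V outside the stretches with the core and 12 bases on each side in the window. The core is in capitals, and each is read along the strand that holds it.
idhg-1: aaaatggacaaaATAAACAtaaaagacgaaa
F39G3.3: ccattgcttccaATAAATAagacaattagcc
iff-2: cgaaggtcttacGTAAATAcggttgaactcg
The core of idhg-1 is at chrIII:4568694-4568700, that of F39G3.3 at chrV:4731555-4731561 and that of iff-2 at chrII:8561374-8561380, all on the plus strand of ce11. The F39G3.3 peak had 24.7 in replicate 1, 26.4 in replicate 2 and 52.0 in the pooled list.

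G and C and CpG content at the summit were higher in members of higher signal. G and C made up 38.8% ± 8.38 (SD, n = 1868 peaks) of the 201 bases around member summits, against 36.3% ± 5.40 in their flanks, and 44.3% ± 7.23 (n = 117) at thresholded members, against 37.8% ± 5.06. CpG numbered 8.91 ± 4.72 per window at members, against 7.07 ± 2.85 in flanks, and 12.2 ± 4.71 at thresholded members, against 8.28 ± 2.83. Without the stretches the thresholded members (n = 93) had 45.9% ± 6.59 G and C, against 37.9% ± 5.21, and 13.2 ± 4.40 CpG, against 8.39 ± 2.85. From the lowest to the highest of the 4 signal classes the mean CpG count was 7.67, 8.13, 8.71 and 11.1. The difference in G and C from the flanks was not the same in both libraries: the strongest peaks of replicate 2 alone had 41.3% G and C at member summits, against 36.5% in flanks, and those of replicate 1 alone 35.6%, against 35.9%. Restricted to as many peaks as the thresholded list has, replicate 2 alone gave 45.8%, against 37.1%, and replicate 1 alone 41.6%, against 37.8%. CpG was above the flanks in each library without that restriction. It numbered 9.38 per window, against 7.09, from replicate 2 alone and 7.42, against 6.84, from replicate 1 alone. Other autosomal peaks outside the stretches had 38.5% ± 9.12 G and C at the summit, against 35.5% ± 6.12 in flanks, a difference of similar size to that of members.

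**Figure D5:**
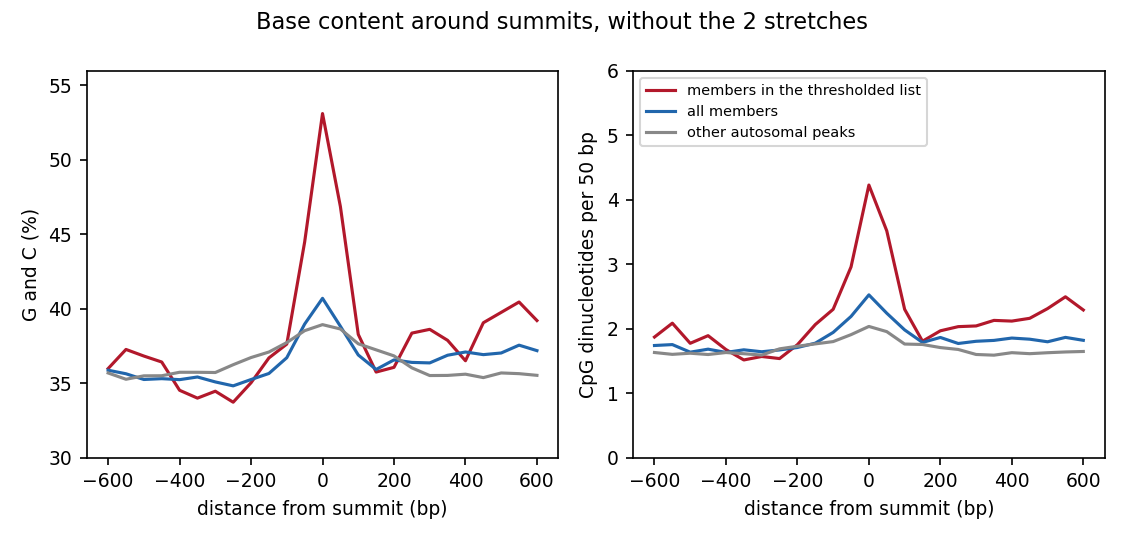
G and C content (left, percent) and CpG dinucleotides (right) in 50 bp windows by distance from the summit (x axes, bp), without the 2 stretches, for thresholded members (red), all members (blue) and other autosomal peaks (grey); positive distances run downstream along the nearest gene for members and along the reference for other peaks. At the summit G and C is 53.1% in thresholded members, 40.7% in all members and 38.9% in other peaks.

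The same order held over genes. Of genes with 0 to 2 CpG in the 201 bases centred 150 bp upstream, 8.70% had a member, of those with 3 to 5 9.57%, with 6 to 8 12.2%, with 9 to 12 18.6% and with 13 to 31 29.8%. Thresholded members were at 0.256% of the first of these classes and 3.94% of the last. Ribosomal protein genes had 7.51 ± 3.19 CpG there (n = 79), against 6.15 ± 3.38 in all autosomal genes (n = 17242). The part of CpG content in the gene lists was not tested.

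A GA repeat and a G- and C-rich word stood out among the motifs searched, with higher shares at summits than in flanks. GAGAGA was at 19.4% of member summits, against 10.9% of flanks, at 29.1% of thresholded summits, against 9.83%, and in 15.3% of all promoters. GGGCGG was at 8.62% of summits, against 3.67%, at 24.8% of thresholded summits, against 4.70%, and in 5.504% of all promoters. Without the stretches GAGAGA was at 33.3% of thresholded summits, against 9.14%, and GGGCGG at 27.96%, against 3.23%. Other autosomal summits held GAGAGA in 17.8% of cases, against 10.9% of their flanks, and GGGCGG in 6.67%, against 3.68%. From the strongest peaks of replicate 2 alone GAGAGA was at 21.1% of member summits, against 11.4% of flanks. Those of replicate 1 alone gave 14.4%, against 11.2%, which was below the share of GAGAGA in all promoters. With only as many peaks as the thresholded list has, replicate 2 alone gave 33.3%, against 12.04%, and replicate 1 alone 21.6%, against 12.2%. The higher share of GAGAGA at member summits was thus present in both libraries and less marked in replicate 1. TATAAA was at 16.8% of summits, against 20.5% of flanks, and TGATAA, the word that factors of the GATA family recognise, at 15.3%, against 17.9%, and at 5.98% of thresholded summits, against 18.8%. CCAAT was at 33.4% of summits and 33.4% of flanks, the E-box CACGTG at 3.69%, against 4.20%, the cyclic AMP response element at 1.18%, against 1.02%, and a run of 7 T at 37.8%, against 36.03%.

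A further 5 words, some of which can overlap each other, were picked after words at thresholded summits had been counted, so their values there are a description of that choice. GCGCGC was at 18.8% of thresholded summits, against 1.28% of flanks, at 7.76% of all member summits, against 1.79%, and in 2.82% of all promoters. Without the stretches it was at 22.6% of thresholded summits, against 1.08%. CGCGCA was at 22.2% of thresholded summits, against 2.14%, GCGCAC at 25.6%, against 3.42%, and AGTGCG at 23.1%, against 2.56%. The word CTCCGCCC, whose other strand holds GGGCGG, was at 13.7%, against 0.427%. At other autosomal summits GCGCGC was found in 3.05% of cases, against 1.46% of flanks. In member summits from replicate 2 alone GCGCGC was at 6.81%, against 1.63% of flanks, and from replicate 1 alone at 5.03%, against 1.60%. Among as many peaks as the pooled list has, the share of this word was thus higher at summits than in flanks in each library. At that number of peaks the share of G and C was higher in replicate 2 only. Among as many peaks as the thresholded list has, it was higher in both. The word was picked from peaks pooled from these same libraries, so its values in each library are a description too.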

How the data were processed

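The authors made, per the deposited file lists, a relaxed peak list for each replicate and for both replicates together against a control, and an optimal list thresholded by IDR. They used an aligner and a peak caller not given in the sources used here. Each deposited peak carries a signal, as the authors' caller gave it, and the offset of its summit from its start; the deposited −log10 q-value was not used. Signal served to order the peaks of a list, and replicate signals are set side by side without a test, since the scales of the lists may differ.

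The ce11 lists were read with 1-based coordinates. Genes came from Ensembl release 115 and sequence from RefSeq's copy of the same assembly. Each autosomal summit was placed in the first class that applied: within 100 bp of a tRNA, snoRNA or snRNA gene, promoter, exonic, intronic or distal intergenic. Classes were compared with two-sided Fisher's exact tests over peaks, adjusted by Benjamini-Hochberg over 3 classes with a threshold of 0.05, and the tests were checked on simulated data. Gene lists were matched by symbol pattern. The named genes are those nearest to the 20 highest members outside the stretches, the highest in each stretch, up to 3 of the highest in a described list, and the 3 genes with the most summits; members at the edge of the threshold and the forkhead-core examples were chosen afterwards. The members and lists were chosen with earlier results of these data known. Other windows, overlaps, gene models, single replicates and the omission of the stretches were tried. The ce10 lists were not used. Tests ran in scipy 1.17.1, tables in pandas 2.3.3 and numpy 2.4.6, and plots in matplotlib 3.10.9, all under Python 3.11.15.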

Additional observations from a re-analysis of the deposited data

How the results depend on the processing

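No paired analysis was possible because the series holds 1 group. Every test of the thresholded share kept its direction and passed under every alternative run. For single replicates, being among the 378 strongest peaks of the replicate's own list took the place of the thresholded list. Odds ratios by that other measure were 2.36 to 3.63 against exonic, 2.57 to 2.70 against intronic and 1.44 to 1.88 against distal intergenic peaks. The test of presence in both replicates failed in 2 cases, both with the window to 2000 bp, at odds ratios of 1.14 against exonic and 1.16 against distal intergenic peaks. The number of members was 1806 to 1909 from single replicates and 117 in the thresholded list, which served 153 genes. The thresholded share was 5.11% without the stretches and 2.73% with only the stronger peaks of that list. In the longer lists of single replicates, 1.56% to 1.65% of promoter peaks were among the replicate's own 378 strongest, which is not the same share. Presence in both replicates was 57.1% with a stricter overlap and 22.8% with the strongest peaks of each replicate only. The share of forkhead cores at summits minus that in flanks was -9.40 percentage points in thresholded members and -2.66 to 1.49 from single replicates. That of G and C was -0.264 to 4.80 points from single replicates, changing sign in replicate 1 alone, also without the stretches (-0.240 against 4.86); from as many peaks as the thresholded list has it was 3.78 to 8.75. The alternatives by single replicate restricted in these last 2 ways were chosen after seeing the data. The cause of these changes was not tested. The number of genes with a member was 2074 to 2175 from single replicates, and of 155 alternative counts for single gene lists 46 moved by more than 1.5 times. Most of the 46 were counts from thresholded members only, a small subset of the members in which a count cannot rise. Unknown read depth limits every statement on weak peaks.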
